A study of Mus musculus with 115 samples.

Results

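The Cyp3a cytochromes were read by 8 probes for 6 genes (Cyp3a11, Cyp3a13, Cyp3a16, Cyp3a25, Cyp3a41 and Cyp3a44), out of 25697 probes for 18120 gene symbols on the array. They were taken by gene symbol from both deposited tables, with 3 probes for Cyp3a13 and 1 for each other gene. The samples were livers of mice of 12 groups, 4 genotypes by 3 capsules with 5 arrays each (60 arrays), and inguinal adipose tissue of the same 12 groups with 3 to 5 arrays each (55 arrays). All mice were of the C57BL/6J background and came from a cross of 2 alleles, a Y chromosome that lacks the testis-determining gene Sry (Srydl1Rlb) and an Sry transgene on an autosome (TgSry2Ei). XX and XY- mice had no Sry and developed ovaries, and XXSry and XY-Sry mice had the transgene and developed testes. Every mouse, controls included, had its gonads removed at 75 days of age and was given a capsule straight away, either blank (B) or holding 5 mM testosterone (T) or 50 µg estradiol (E), and tissues were taken 3 weeks later. The transgene is not on the Y chromosome, so the XY-Sry mouse is a model of a male and not a wild-type male, and the blank groups model an adult without gonads. The labels do not state that each array came from a separate mouse, so the tests measure the spread between arrays.

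CYP3A enzymes are haem proteins of the endoplasmic reticulum that oxidise drugs, bile acids and steroids, testosterone among them. In liver their genes are controlled by the xenobiotic receptors PXR and CAR and by hepatocyte factors, and several respond to the sex-dependent pattern of pituitary growth hormone. Cyp3a11 is the main form of adult mouse liver, Cyp3a13 is a form of liver and gut, Cyp3a16 is best known from the fetal and newborn liver, and Cyp3a41 and Cyp3a44 are known as female-predominant forms. The levels given below are log2 values after normalisation, and a probe was called detected on an array when its deposited detection p-value was under 0.01.

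In the RefSeq gene table (GRCm38.p6) the genes Cyp3a16, Cyp3a41b, Cyp3a41a, Cyp3a44, Cyp3a11 and Cyp3a25 follow each other on chromosome 5 in that order, with only pseudogenes of the family among the Cyp3a genes between them, and Cyp3a13 lies apart from them. The array symbol Cyp3a41 is a synonym of Cyp3a41a in that table. The 250 bases before the start of 4 of these genes, all on the minus strand, are shown because they set the gene with the largest group differences (Cyp3a41a, chr5:145720137-145720386) beside its neighbour whose probe was almost never detected (Cyp3a44, chr5:145805875-145806124) and beside forms detected on every array (Cyp3a11, chr5:145879855-145880104, and Cyp3a25, chr5:146009619-146009868). Capitals mark matches, on either strand, to short motifs of factors known in liver.
Cyp3a41a: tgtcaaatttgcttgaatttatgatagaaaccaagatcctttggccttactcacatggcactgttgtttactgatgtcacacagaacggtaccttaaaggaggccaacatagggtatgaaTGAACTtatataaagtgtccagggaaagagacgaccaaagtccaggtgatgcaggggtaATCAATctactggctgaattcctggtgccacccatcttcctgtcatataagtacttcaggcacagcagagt
Cyp3a44: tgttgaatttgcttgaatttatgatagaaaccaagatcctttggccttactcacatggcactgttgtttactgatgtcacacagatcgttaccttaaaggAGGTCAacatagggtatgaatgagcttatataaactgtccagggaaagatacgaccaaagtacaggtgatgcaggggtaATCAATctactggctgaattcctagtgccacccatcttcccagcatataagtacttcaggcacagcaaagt
Cyp3a11: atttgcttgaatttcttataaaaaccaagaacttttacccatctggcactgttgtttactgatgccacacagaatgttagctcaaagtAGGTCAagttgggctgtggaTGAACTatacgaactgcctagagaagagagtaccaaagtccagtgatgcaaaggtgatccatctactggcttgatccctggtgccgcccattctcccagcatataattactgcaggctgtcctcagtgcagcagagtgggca
Cyp3a25: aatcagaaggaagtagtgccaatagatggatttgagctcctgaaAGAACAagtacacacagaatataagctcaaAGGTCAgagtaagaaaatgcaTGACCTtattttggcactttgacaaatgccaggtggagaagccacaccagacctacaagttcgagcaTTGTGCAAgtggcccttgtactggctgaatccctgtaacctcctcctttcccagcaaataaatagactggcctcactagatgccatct

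The Cyp3a41a window was identical to that of Cyp3a44 at 94.4% of aligned bases and to that of Cyp3a41b, its near-copy, at 99.6%. It was identical to the Cyp3a11 window at 80.9%, and the Cyp3a25 window matched it at 64.5%. Because Cyp3a41a and Cyp3a41b are near-identical, signal of the Cyp3a41 probe could come from either gene, and the probe sequence was not used here. The motif ATTGAT, bound by HNF6, was found 71 bases before the start in Cyp3a41a, Cyp3a41b and Cyp3a44, and 75 before it in Cyp3a16. It was in 4 of the 7 windows of the family and in 6.72% of 32851 windows of all genes. Those 4 windows are near copies of each other (93.9% to 99.6% identical), so they are not 4 separate finds. AGTTCA, one arm of the response elements of PXR and CAR, was matched at 130 bases before the start in both Cyp3a41 copies and at 142 in Cyp3a11, which is 3 of 7 windows against 11.8% of all. AGGTCA, the core letters of many nuclear receptor elements, was matched at 150 bases in Cyp3a44, at 162 in Cyp3a11 and at 2 places in Cyp3a25, also 3 of 7 windows, against 14.02% of all. So the 2 close neighbours Cyp3a41a and Cyp3a44 differed in which of AGTTCA and AGGTCA they held. Cyp3a25 alone of the 7 windows held the C/EBP motif TTGCNNAA (9.56% of all windows) and TGTTCT, one arm of androgen and glucocorticoid receptor elements (16.1%). The STAT5 motif TTCNNNGAA was in 0 of the 7 windows and in 7.02% of all. These matches describe the letters of the windows only.

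The share of all probes detected per array was 31.8% to 41.0% in liver and 40.3% to 49.0% in adipose tissue. The hepatocyte markers (8 genes, 10 probes) were detected in at least 50% of the liver arrays for all 10 probes, with a mean level of 12.3 to 12.8. Among liver arrays, 3 stood apart. The array labelled XY-Sry T replicate 5 had the Xist and Eif2s3y levels of an XX array (6.63 and 4.53). The array labelled XY- E replicate 5 had Hsd3b5, a steroid enzyme that testosterone raised, at 12.3, within the range of the testosterone arrays (11.1 to 12.9) and above every other estradiol array. The next estradiol array, XXSry E replicate 5, was at 11.2, just above the lowest testosterone array, and the other XXSry E arrays lay between 8.47 and 10.3. XX E replicate 1 stood apart from its group through its Cyp3a25 and Cyp3a13 levels, given below, and its macrophage marker mean (7.67) was the highest of the 60 arrays but close to the others of its group (7.42 to 7.61). Values without the arrays that go against a label are given beside some of the Cyp3a41 results they enter, but not beside the interactions. For testosterone minus blank and for gonad over all capsules, only direction and call without them are covered, with the processing alternatives. In adipose tissue, the title and the agent field of XX E replicate 1 disagree (estradiol and testosterone), and it was kept with the estradiol arrays. In liver, 6 of the 8 member probes (4 of 6 genes) passed the filter of 5 detected arrays and were tested among 11317 probes. Cyp3a16 was detected in 0 of 60 liver arrays and Cyp3a44 in 1 of 60, the array labelled XY- E replicate 5, so both had only an upper bound. Cyp3a11, Cyp3a25 and the 3 Cyp3a13 probes were detected in 60 of 60, and Cyp3a41 in 20 of 60.

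Cyp3a41 was detected in livers of mice without Sry that had a blank or an estradiol capsule, and in 2 XY-Sry estradiol livers, 20 of 60 arrays in all. In the XX blank group its levels were 7.53, 8.47, 8.64, 7.89 and 6.56 (mean 7.82 ± 0.83, SD, n = 5). In the XY- blank group they were 6.46, 7.35, 7.02, 7.51 and 6.87 (7.04 ± 0.42). All 10 of these arrays lay above all 10 blank arrays with Sry, which ranged from 4.29 to 4.65 and were never detected. In the XX estradiol group the levels were 8.30, 7.50, 7.71, 6.79 and 6.46 (7.35 ± 0.74), and all 5 arrays were detected. In the XY- estradiol group they were 7.61, 4.78, 6.76, 7.69 and 4.35 (6.24 ± 1.58), and 3 of 5 were detected. The lowest of them was the array labelled XY- E replicate 5, whose Hsd3b5 level is given above. The XY-Sry estradiol levels were 6.46, 5.55, 4.51, 5.23 and 4.36 (5.22 ± 0.85), with 2 of 5 detected. The XXSry estradiol levels were 5.19, 4.95, 4.56, 4.53 and 4.42 (4.73 ± 0.33), with 0 detected. The 20 testosterone arrays lay between 4.29 and 4.55, and 0 were detected. In order of their means the groups ran from XX B through XX E, XY- B, XY- E, XY-Sry E and XXSry E to 6 groups between 4.38 and 4.45, and the ranges of neighbours in that order overlapped in all 11 pairs.

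**Figure D1:**
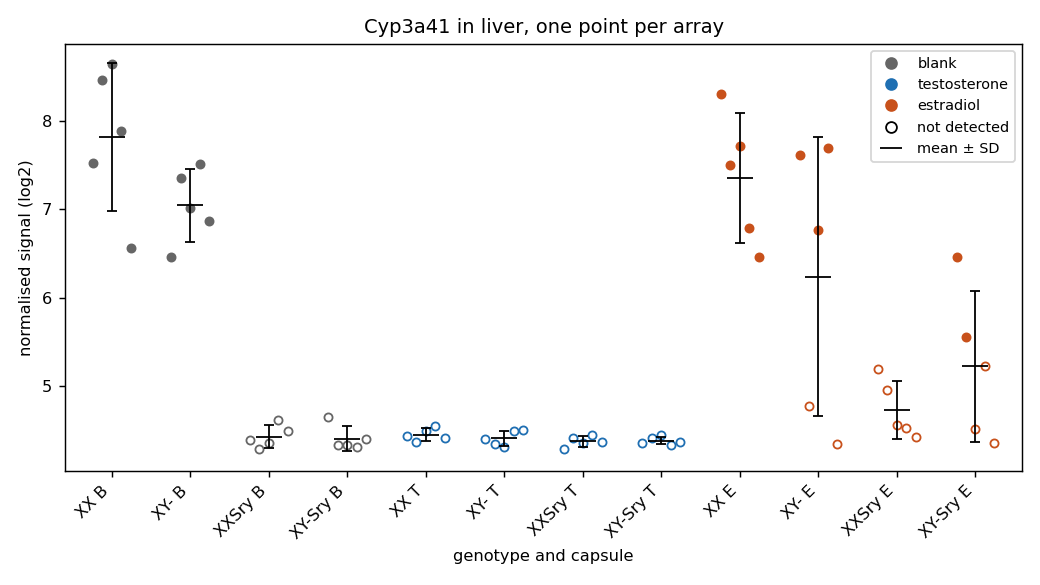
Normalised log2 signal of Cyp3a41 in each of the 60 liver arrays, by genotype and capsule, with filled points for detected arrays, open points for arrays where it was not detected, and bars for the mean ± SD of 5 arrays. The blank XX and XY- arrays lie between 6.46 and 8.64, the blank arrays with Sry between 4.29 and 4.65, and the 20 testosterone arrays between 4.29 and 4.55.

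Whether the type of gonad an animal had developed marked its liver was tested as groups with Sry minus groups without. Of the 6 tested member probes 1 was called, Cyp3a41, beside 3.4% of all tested probes (2.85% called lower). Its mean was 4.59 ± 0.47 (SD, n = 30) with Sry, where 2 of 30 arrays were detected, and 6.22 ± 1.56 (n = 30) without, where 18 of 30 were. The log2 difference was -1.63 ± 0.16 (SE, limma adjusted p = 1.4e-11). It was lower with Sry within each of the 8 slides, by -0.42 to -2.96. In blank mice it was 7.43 ± 0.74 (SD, n = 10) without Sry and 4.42 ± 0.13 (n = 10) with Sry, which is at least 3.67-fold higher without Sry (limma adjusted p = 2.3e-12). In these bounds the dim group is set, on each array, to the lowest level among detected probes or to its own level if that is higher. By genotype, it was at least 4.98-fold higher in XX than in XXSry and at least 2.70-fold higher in XY- than in XY-Sry blank mice (n = 5 each). In estradiol mice it was 6.79 ± 1.30 (n = 10) without Sry, with 8 detected, and 4.98 ± 0.66 (n = 10) with Sry, with 2 detected, a log2 difference of -1.82 ± 0.27 (SE, limma adjusted p = 8.1e-06). Without both arrays that go against a label the latter was -2.05. The fit uses a spread shared by all groups, and the testosterone groups and blank groups with Sry had SDs of only 0.04 to 0.14. The estradiol groups had SDs of 0.33 to 1.58, so the SE of 0.27 and its p rest on a smaller spread than theirs as a whole. In testosterone mice 0 of 20 arrays were detected, so no fold is given. Beside these 3 strata, 1.75% of all probes were called for gonad in blank mice, 2.44% in estradiol mice and 0.212% in testosterone mice. The size of these log2 differences depended on how background is treated: without background correction they were -0.71 over all capsules, -1.31 in blank mice and -0.77 in estradiol mice, all still called.

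Markers of other liver cells moved with gonad type in the same arrays. The mean of the 9 macrophage and Kupffer cell probes (5 of 7 listed genes on the array, 5 probes detected in at least 50% of the arrays) ranged from 6.29 to 7.41 in blank livers without Sry and from 5.72 to 6.22 in those with Sry. In estradiol livers it ranged from 6.30 to 7.67 without Sry and from 6.10 to 6.90 with Sry. The mean of the hepatocyte markers ranged from 12.3 to 12.7 in blank livers without Sry and from 12.4 to 12.6 in those with Sry. The part of cell composition in the Cyp3a41 result was not tested, and in these bulk samples fewer cells of a type and less RNA per cell cannot be told apart.

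Testosterone minus blank, the question of what the androgen does in adults without gonads, called 3 of the 6 tested member probes (1 higher and 2 lower), beside 19.1% of all tested probes (8.17% higher and 10.9% lower). The 2 lower ones were Cyp3a41 and Cyp3a13 probe 1, and the higher one was Cyp3a11. Cyp3a41 had a mean of 4.40 ± 0.07 (SD, n = 20) under testosterone and 5.92 ± 1.63 (n = 20) under blank capsules, of which 10 of 20 were detected. The log2 difference was -1.52 ± 0.19 (SE, limma adjusted p = 1.1e-08), and -0.65 without background correction. With 0 testosterone arrays detected, the level was at least 1.28-fold lower over all genotypes. The log2 difference lay between -1.12 and -1.68 within the 3 slides that held both capsules. In mice without Sry the level was 7.43 with a blank capsule and 4.43 ± 0.08 (n = 10) with testosterone, at least 3.64-fold lower (limma adjusted p = 6.4e-13), beside 7.06% of all probes called in that comparison. With Sry neither capsule gave a detected array, so no direction can be given there, and 9.14% of all probes were called. With Sry, 0 of 10 blank arrays were detected, so a fall there could not have been measured. The fitted interaction of testosterone and gonad (2.96 ± 0.38) therefore restates the gonad difference of the blank mice and shows no difference in response. Cyp3a41 was the 1 member probe called in it, beside 0.124% of all probes.

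Estradiol minus blank called 0 of the 6 member probes (0 at an unadjusted p under 0.05), beside 6.82% of all probes. For Cyp3a41 the mean was 5.89 ± 1.37 (SD, n = 20) under estradiol and 5.92 ± 1.63 (n = 20) under blank capsules. Its log2 difference was -0.04 with a 95% interval of -0.42 to 0.34. Within the mice without Sry it was -0.63 ± 0.27 (SE, limma adjusted p = 0.22), and -0.40 without XY- E replicate 5. This SE too rests on the spread shared with groups near background. With Sry 0 of 10 blank and 2 of 10 estradiol arrays were detected, so the fitted 0.56 ± 0.27 (adjusted p = 0.38) has no measured size and no bound. Without both arrays that go against a label, the difference over all genotypes was 0.08. The estradiol difference between gonad types, which rests on that undetected group, was fitted at 1.19 ± 0.38. It did not pass (limma adjusted p = 0.33, unadjusted p = 0.0027), although it passed with array weights (1.34, adjusted p = 0.045). Leaving out 1 array gave 0.96 to 1.37 (limma adjusted p from 0.11 to 0.67), and the other settings gave 0.53 to 1.38. With Sry, the estradiol difference was 0.06 and 1.30 within the 2 slides that held both capsules. Beside these counts, 2.47% of all probes were called for estradiol without Sry, 1.78% with Sry and 0.0795% for the interaction. For the other 5 probes the estradiol differences lay between -0.04 and 0.07, and their 95% intervals between -0.20 and 0.30.

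Cyp3a44 and Cyp3a16, close neighbours of Cyp3a41a, gave no such pattern on their own probes. Cyp3a44 group means ran from 4.59 to 5.29, and the highest group was XY- E, with 5.08, 5.35, 4.99, 5.44 and 5.58, of which only the last was detected. Cyp3a16 group means ran from 4.44 to 4.82. Neither was detected in any of the 10 XX and XY- blank livers in which Cyp3a41 was detected, so the data give only an upper bound for these transcripts there.

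Cyp3a11 was higher under testosterone by a small amount. Under testosterone the lowest, median and highest of 20 arrays were 13.87, 14.13 and 14.60 (mean 14.17 ± 0.19, SD), and under blank capsules they were 13.52, 13.97 and 14.33 (13.95 ± 0.18, n = 20), so the groups overlapped widely. The log2 difference was 0.21 ± 0.07 (SE, limma adjusted p = 0.023), or 1.16-fold. It was positive in 4 of 4 genotypes, at 0.23 in XX, 0.29 in XY-, 0.29 in XXSry and 0.04 in XY-Sry mice, and in 3 of 3 slides (0.16 to 0.28). The sign in XY-Sry mice rests on XY-Sry T replicate 5, which goes against its label and was the highest of its group (14.33). Against estradiol (13.11, 13.95 and 14.16; 13.91 ± 0.24, n = 20) the difference was 0.25 ± 0.07 (SE, limma adjusted p = 0.0063), again positive in 4 of 4 genotypes. The call against blank was lost with median centring in place of quantile normalisation (0.22, adjusted p = 0.21), while no single array left out ended it. Split by gonad type, the testosterone difference was 0.26 without Sry (limma adjusted p = 0.11) and 0.17 with Sry (0.31), and neither passed. The 4 testosterone groups held the 4 highest means of Cyp3a11, from 14.10 to 14.27, and XX E the lowest (13.75 ± 0.39). Of the XX E arrays, replicate 1 was the lowest, at 13.11.

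Cyp3a25, a neighbour of Cyp3a11 and expressed in adult liver, gave a testosterone difference of the same sign that did not pass. The lowest, median and highest levels were 11.98, 12.45 and 12.86 under testosterone (12.41 ± 0.25, SD, n = 20) and 11.58, 12.21 and 12.63 under blank capsules (12.17 ± 0.30, n = 20). The log2 difference was 0.24 ± 0.11 (SE, limma adjusted p = 0.13), positive in 4 of 4 genotypes and in 3 of 3 slides. It was smallest in XY-Sry mice (0.03). The sign there rests on XY-Sry T replicate 5 (12.86), which goes against its label. Without XX E replicate 1, an array of another group that enters the shared spread of the fit, the same difference of 0.24 passed (limma adjusted p = 0.032). That array read 10.26, while the other XX E arrays lay between 12.09 and 12.47. Cyp3a25 was called in 0 of the 17 contrasts. The lowest group mean was that of XY- B (11.88 ± 0.24, n = 5) and the highest that of XXSry T (12.52 ± 0.22, n = 5).

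Of the 3 Cyp3a13 probes, 1 was lower under testosterone and the others did not pass. Probe 1 had 10.85, 11.37 and 12.23 as its lowest, median and highest level under testosterone (11.43 ± 0.33, SD, n = 20) and 11.43, 11.79 and 12.21 under blank capsules (11.77 ± 0.22, n = 20). Its log2 difference was -0.34 ± 0.11 (SE, limma adjusted p = 0.018), negative in 4 of 4 genotypes (from -0.16 in XY-Sry to -0.57 in XY- mice) and in 3 of 3 slides. With slide as a fixed block it was -0.19 (adjusted p = 0.17) and with slide as a random block -0.24 (adjusted p = 0.068), and neither passed. Split by gonad type, the difference was -0.43 without Sry (limma adjusted p = 0.066) and -0.24 with Sry (0.35), and neither passed. Within slides it was -0.50 to -0.32 without Sry, negative in 3 of 3. With Sry it was -0.13 to 0.12, negative in 2 of 3. Probe 3 had a difference of -0.17 ± 0.08 (limma adjusted p = 0.12) and probe 2 one of -0.11 ± 0.12 (adjusted p = 0.59), whose sign turned with slide as a fixed block (0.034). Against estradiol, probe 1 was lower by -0.36 ± 0.11 (limma adjusted p = 0.0098) and probe 3 by -0.22 ± 0.08 (adjusted p = 0.036), and probe 2 gave -0.14 (adjusted p = 0.43). The call of probe 3 was lost in 9 of 60 fits that left out 1 array, with differences of -0.17 to -0.21. Those arrays were XX E replicate 1, XX T replicate 5, XXSry E replicate 1, XXSry T replicates 2 and 3, XY- E replicate 2, XY-Sry E replicate 5 and XY-Sry T replicates 4 and 5. Both calls were lost with median centring (-0.25 and -0.11). The tables do not say which stretch of the transcript each probe reads, so the 3 probes are kept apart.

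Testosterone minus estradiol called 4 of the 6 member probes, beside 18.4% of all probes (7.78% higher and 10.6% lower): Cyp3a11 higher, and Cyp3a41, Cyp3a13 probe 1 and Cyp3a13 probe 3 lower. For Cyp3a41 the log2 difference was -1.48 ± 0.19 (SE, limma adjusted p = 1.5e-08), with 0 of 20 arrays detected under testosterone and 10 of 20 under estradiol (-1.60 without both arrays that go against a label), or at least 1.25-fold lower over all genotypes. Within XX mice it was at least 3.39-fold lower under testosterone (n = 5 each). This comparison shares its testosterone arrays with the comparison against blank.

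**Figure D2:**
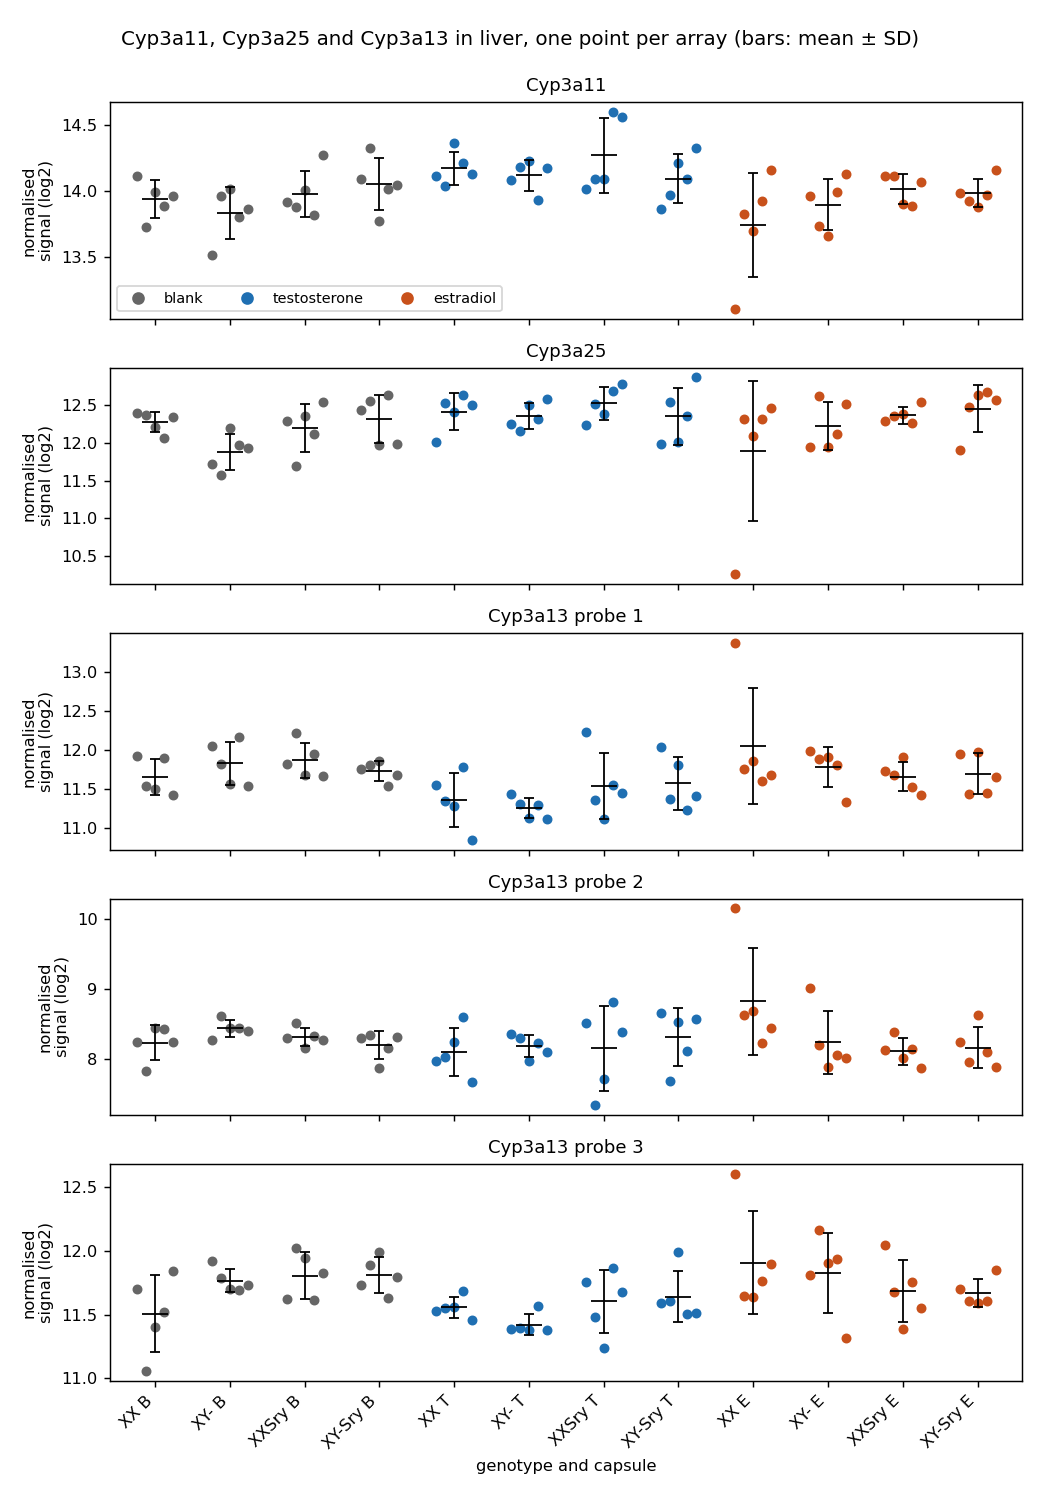
Normalised log2 signal of Cyp3a11, Cyp3a25 and the 3 Cyp3a13 probes in each liver array, by genotype and capsule, with bars for the mean ± SD of 5 arrays and a separate vertical range in each panel. The testosterone groups hold the 4 highest means of Cyp3a11 (14.10 to 14.27) and the 4 lowest of Cyp3a13 probe 1 (11.26 to 11.57), and XX E replicate 1 stands apart in Cyp3a25 (10.26) and Cyp3a13.

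**Figure D3:**
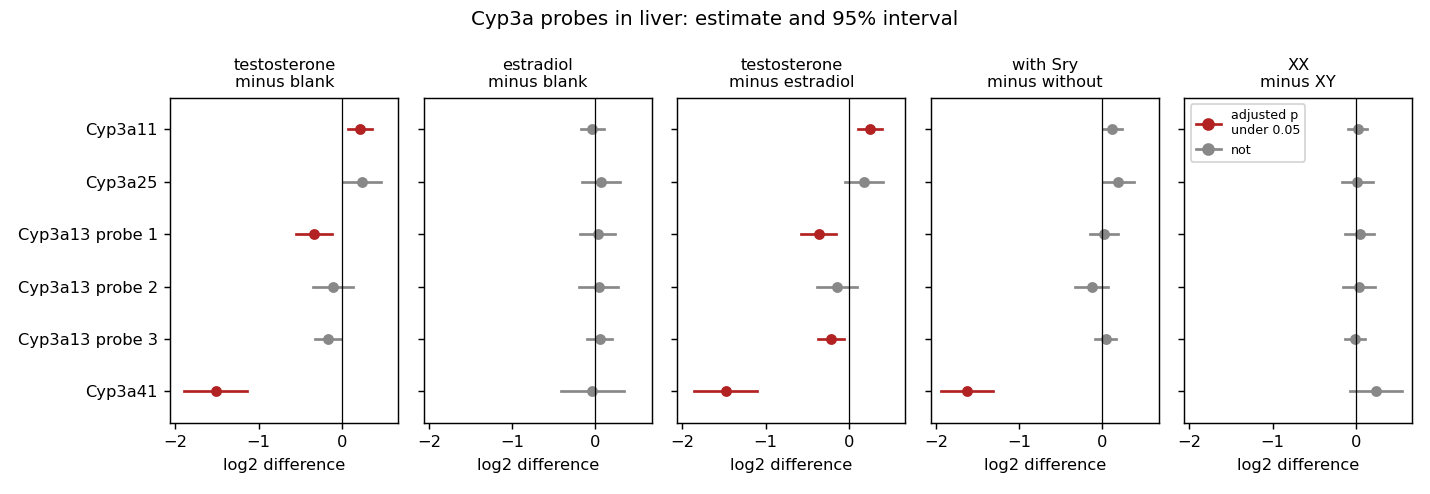
Log2 difference with its 95% interval for each tested Cyp3a probe in 5 comparisons over the liver arrays, in red where the limma adjusted p was under 0.05. Cyp3a41 is lower under testosterone (-1.52) and with Sry (-1.63), and the intervals of XX minus XY include 0 for all 6 probes. For Cyp3a41 the XX minus XY value averages in groups where it was not detected on any array.

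Sex chromosome complement, XX minus XY at equal gonad type, called 0 of the 6 probes (0 at an unadjusted p under 0.05), beside 0.186% of all probes. Cyp3a41 had a mean of 5.53 ± 1.55 (SD, n = 30) in XX and 5.28 ± 1.25 (n = 30) in XY livers, a difference of 0.24 with a 95% interval of -0.07 to 0.55 (limma adjusted p = 0.999), and 0.16 without both arrays that go against a label. This average includes the testosterone groups and the blank groups with Sry, where no array was detected and no difference could be measured. So the interval does not bound the difference in the groups where Cyp3a41 was detected. Without Sry, XX was above XY- by 0.77 with blank capsules and by 1.11 with estradiol, from groups of 5 arrays that overlapped. Without XY- E replicate 5 the latter was 0.64. With Sry and estradiol the sign was opposite, XXSry below XY-Sry by -0.49, with 0 and 2 of 5 arrays detected. The interaction of gonad and sex chromosomes for Cyp3a41 was -0.80 ± 0.31 (unadjusted p = 0.013, limma adjusted p = 0.9999). With Sry only 2 of 30 arrays were detected, so this value mostly restates the difference of XX and XY- without Sry, XY- E replicate 5 included. The gonad and sex chromosome interaction called 0 of all probes, as did those of testosterone and of estradiol with the sex chromosomes. In these, 294, 180 and 326 of 11317 probes had an unadjusted p under 0.05. For the other 5 probes the differences lay between -0.01 and 0.04. Their 95% intervals lay between -0.17 and 0.23, and without both arrays that go against a label the differences lay between -0.04 and 0.05.

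Over the 60 liver arrays, after the group means were subtracted, Cyp3a11 and Cyp3a25 varied together (Pearson r = 0.63), and r was 0.44 without XX E replicate 1. The 3 Cyp3a13 probes correlated with each other at 0.48 to 0.70 (0.28 to 0.53 without that array). Cyp3a25 and Cyp3a13 probe 1 varied in opposite directions (-0.72, and -0.48 without it). Cyp3a41 correlated with Cyp3a25 at -0.44 (-0.39 without that array) and with the other probes between -0.18 and 0.30. It was detected on only 20 of 60 arrays. Its spread within groups came mostly from the blank groups without Sry and the estradiol groups, XY- E replicate 5 included. The 60 arrays share slides, and no test was made of these correlations. By the pattern of the 12 group means, the genes outside the family most like Cyp3a11 were D13Wsu64e (r = 0.94), Dcun1d4 (0.94) and the aldehyde oxidase Aox3 (0.94). Those most like Cyp3a13 probe 3 were Tgm1 (0.93), Col16a1 (0.91) and Vps28 (0.89), and those most like Cyp3a25 included Lsm12 (0.93) and Rai12 (0.92). For Cyp3a41 they were 1700095N21Rik (0.95), Ctso (0.94) and Tmsb10 (0.94), each with its highest mean in XX E, whereas Cyp3a41 was highest in XX B. Each is the best of 11317 probes over 12 points, and the highest of so many is high by selection.

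The receptors and hepatocyte factors that bind Cyp3a genes were measured by 14 probes for 13 of 18 listed genes. Under testosterone 5 probes were called, 2 higher and 3 lower, beside 19.1% of all probes, with a list median of 0.04 beside 0.0030 over all probes. Nr1i3, which encodes the xenobiotic receptor CAR, was lower by -0.67 ± 0.13 (SE, n = 20 and 20, limma adjusted p = 1.5e-04). Ppargc1a, a coactivator of nuclear receptors, was lower by -0.49 ± 0.12 (adjusted p = 0.0022), and Nr1h4, the bile acid receptor FXR, by -0.25 ± 0.07 (adjusted p = 0.011). Cebpb, a bZIP factor of the acute phase, was higher by 0.48 ± 0.10 (adjusted p = 3.6e-04) and Foxa3, a hepatocyte forkhead factor, by 0.43 ± 0.10 (adjusted p = 9.4e-04). The calls of Cebpb, Foxa3 and Nr1h4 were lost with median centring. Under estradiol 2 of 14 were called, beside 6.82% of all probes, Cebpb higher (0.37 ± 0.10, limma adjusted p = 0.016) and Rxra, the partner of PXR and CAR, lower (-0.24 ± 0.08, adjusted p = 0.043). The Cebpb call was lost with median centring, and the Rxra call was lost in 25 of 60 fits that left out 1 array. For gonad 0 of 14 were called, beside 3.4% of all probes.

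The electron donors of cytochromes P450 were measured by 7 probes for 3 of 5 listed genes, of which 3 probes were called under testosterone, 1 under estradiol and 1 for gonad, beside 19.1%, 6.82% and 3.4% of all probes. Por, the reductase that feeds all microsomal P450 enzymes, was lower under testosterone on its 3 probes, with the largest difference at -0.55 ± 0.16 (SE, n = 20 and 20, limma adjusted p = 0.0087) and the others at -0.31 and -0.36, and the call of the first was lost with slide as a fixed block. With Sry, 1 Por probe was higher (0.34 ± 0.10, limma adjusted p = 0.033), a call lost in 12 of 60 fits that left out 1 array, with median centring and without both arrays that go against a label. Under estradiol Cyb5r3, the cytochrome b5 reductase, was lower on 1 of 3 probes (-0.46 ± 0.12, limma adjusted p = 0.013). The list medians were -0.21, -0.21 and 0.15 for testosterone, estradiol and gonad, beside 0.0030, -0.016 and 0.015 over all probes.

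Other target genes of PXR and CAR were measured by 21 probes for 14 of 20 listed genes. Under testosterone 7 of 21 were called, 3 higher and 4 lower, beside 19.1% of all probes. Fmo5, a flavin monooxygenase, was higher on both probes (0.77 ± 0.17, limma adjusted p = 4.4e-04, and 0.57), and Abcc2, a canalicular export pump, on 1 of 2 probes (0.49 ± 0.16, adjusted p = 0.021, lost with median centring). Slco1a4, a sinusoidal uptake carrier, was lower by -0.74 ± 0.15 (limma adjusted p = 2.3e-04), Papss2, which makes the sulfate donor, by -0.74 ± 0.18 (adjusted p = 0.0020) and Cyp2c37, an arachidonic acid hydroxylase, by -0.59 ± 0.16 on 1 of 3 probes (adjusted p = 0.0068). Under estradiol 7 of 21 were called, beside 6.82% of all probes, and all 7 were lower, 1 for each of 7 genes. The glutathione transferases Gsta1 (-1.26 ± 0.22, limma adjusted p = 6.3e-05) and Gsta2 (-0.84 ± 0.14, adjusted p = 4.1e-05) and the cytochrome Cyp2c55 (-1.01 ± 0.16, adjusted p = 2.6e-05) had the largest differences. The list median was 0.02 for testosterone and -0.18 for estradiol, beside 0.0030 and -0.016 over all probes. For gonad 1 was called, beside 3.4% of all probes, Cyp2c55, which was higher with Sry by 0.91 ± 0.13 (limma adjusted p = 1.4e-06), the opposite sign to Cyp3a41.

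The growth hormone axis was measured by 15 probes for 10 of 13 listed genes. Under testosterone 7 of 15 were called, 1 higher and 6 lower, beside 19.1% of all probes, with a median of -0.15 beside 0.0030 over all probes. Prlr, the prolactin receptor, was lower by -2.15 ± 0.13 (SE, 8.91 ± 0.39 against 11.06 ± 0.19, SD, n = 20 each, limma adjusted p = 3.7e-20), and by -1.06 on its other probe. Socs2, a feedback inhibitor induced by growth hormone, was lower by -0.83 ± 0.18 (limma adjusted p = 7.0e-04), and Cish, of the same family, by -0.89 ± 0.30 (adjusted p = 0.028, lost in 3 of 60 fits that left out 1 array). Bcl6, a repressor of STAT5 target genes, was higher by 1.12 ± 0.29 (limma adjusted p = 0.0040). Under estradiol 2 were called, beside 6.82% of all probes, Socs3 (0.78 ± 0.25, adjusted p = 0.041) and Stat5a on 1 of 2 probes (0.39 ± 0.12, adjusted p = 0.043), with limma, and these calls were lost in 17 and 20 of 60 fits that left out 1 array. For gonad 0 of 15 were called, beside 3.4% of all probes.

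Sex steroid receptors and steroid-clearing enzymes were measured by 8 probes for 8 of 10 listed genes, and 7 were called under testosterone, 3 higher and 4 lower, beside 19.1% of all probes. The list median was -0.27, beside 0.0030 over all probes. Hsd3b5, a ketosteroid reductase of male liver, was at 12.30 ± 0.42 under testosterone and 6.02 ± 0.87 under blank capsules (SD, n = 20 each), a difference of 6.27 ± 0.36 (SE, limma adjusted p = 7.6e-21). Srd5a1, a steroid reductase, was higher by 1.80 ± 0.18 and Cyp7b1, an oxysterol and steroid hydroxylase, by 1.53 ± 0.13. Esr1, the estrogen receptor, was lower by -1.22 ± 0.14, Cyp17a1, a steroid hydroxylase and lyase, by -1.13 ± 0.26, and Akr1d1, a steroid and bile acid reductase, by -0.73 ± 0.12. Under estradiol 2 were called, beside 6.82% of all probes, Cyp17a1 higher by 2.36 ± 0.26 (limma adjusted p = 3.9e-09) and Hsd3b5 by 1.28 ± 0.36 (adjusted p = 0.017), the latter lost with slide as a block. The highest estradiol arrays for Hsd3b5 were XY- E replicate 5 (12.3), which goes against its label, and the XXSry E arrays (8.47 to 11.2). For gonad 2 of 8 were called, beside 3.4% of all probes, Cyp7b1 higher with Sry by 0.95 ± 0.11 and Cyp17a1 lower by -0.95 ± 0.21 (limma adjusted p = 3.0e-09 and 0.0018). The family's own remaining genes on the list, 4 in all, had 0 probes on the array.

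In inguinal adipose tissue, 4 of the 8 member probes passed the filter of 3 detected arrays, and 0 of 4 were called in each of testosterone, estradiol, testosterone minus estradiol, gonad and sex chromosome (0 at an unadjusted p under 0.05 in each, limma). The count was also 0 without XX E replicate 1, whose label fields disagree. Of all 14636 probes tested, 4.75%, 20.5%, 17.3%, 7.34% and 0.137% were called in these comparisons. Cyp3a11 was detected in 13 of 55 arrays, Cyp3a25 in 6, Cyp3a13 probes 1, 2 and 3 in 3, 1 and 5, and Cyp3a16, Cyp3a41 and Cyp3a44 in 0. The 13 arrays with Cyp3a11 detected ranged from 6.01 to 13.5 (median 7.87) and the other 42 from 4.46 to 5.51. The highest were XY-Sry T replicate 1 (13.5), XX T replicate 4 (11.2) and XXSry B replicate 1 (10.5).

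The same adipose arrays were highest for the hepatocyte markers. The mean of the 10 hepatocyte marker probes was 12.4, 10.1 and 10.1 in those 3 arrays. It was 7.42 to 12.4 in the 13 arrays with Cyp3a11 detected and 5.73 to 7.59 in the other 42. Over the 55 arrays Cyp3a11 and this mean had a Pearson r of 0.96 and a Spearman rho of 0.79, and r was 0.90 without the 3 highest arrays. For Cyp3a25 the corresponding r was 0.86 (Spearman rho 0.44), and 0.69 without them. For Cyp3a13 probes 1 and 3 it was 0.80 and 0.80 (rho 0.48 and 0.28), and 0.54 and 0.46 without them. Of the 13 arrays 6 lay on 1 slide of 8 arrays. Another slide had Cyp3a11 detected on 2 of its 2 adipose arrays, and by the labels its chip also held liver arrays. Each treatment held some of the 13 arrays. The part of liver transcripts in these adipose levels was not tested.

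**Figure D4:**
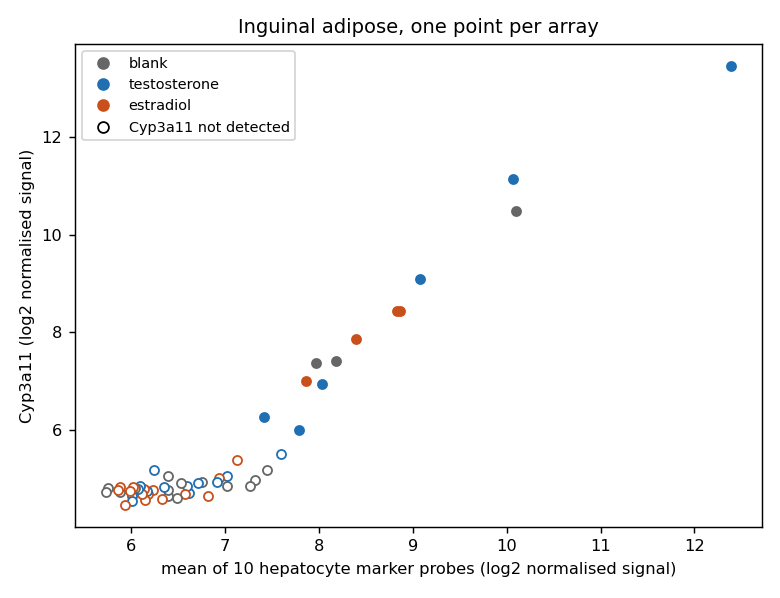
Cyp3a11 against the mean of 10 hepatocyte marker probes in the 55 inguinal adipose arrays, both as normalised log2 signal, coloured by capsule, with open points where Cyp3a11 was not detected. The 13 arrays with Cyp3a11 detected lie at marker means of 7.42 to 12.4, and XY-Sry T replicate 1 lies highest on both axes (12.4 and 13.5).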

How the data were processed

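RNA of liver and inguinal adipose tissue was hybridised to 1-colour Illumina BeadChips. Per the file headers, the authors deposited for each probe the mean bead signal (an intensity, linear scale) and a detection p-value; the deposited p-values were used only to call a probe detected (under 0.01). No label or header states how they were made; the submitters' processing notes name lumi, without its role. The 115 columns of bead standard errors were not used.

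Members and gene lists were chosen with earlier results of these data known. Groups come from the labels, and replicate numbers only name arrays. Each tissue was processed in limma 3.58.1 (R 4.3.3): normexp background with controls inferred from the detection p-values, offset 16, quantile normalisation, log2. Because 16 is added, differences of dim probes are understated. Probes detected in at least 5 liver or 3 adipose arrays were tested (11317 and 14636 of 25697). A model with a mean per group was fitted with lmFit and eBayes, 17 contrasts were tested, two-sided, and Benjamini-Hochberg adjusted over all tested probes of a contrast, and "called" means adjusted p under 0.05. The procedure was tested on simulated data. Array number limits precision. All member probes are named; in each list, up to 3 called genes per direction with the largest difference; for likeness, the 3 genes with the highest r, of which 1 is not reported here. Each of the 8 slides per tissue lacked a capsule, so within-slide differences are given. Alternatives covered background, offset, normalisation, filter, slide, array weights, variance model and arrays left out. In adipose tissue they also covered the hepatocyte marker mean as a covariate and XX E replicate 1 as a testosterone array. Probes were not set against each other in level. Promoter windows are RefSeq's (GRCm38.p6), without the 50 bases after the start, aligned pairwise with Biopython 1.88; the array's genome build is not given in the sources used here.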

Additional observations from a re-analysis of the deposited data

Results flagged for a closer look

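In liver, an array stood apart from the other 4 of its group on a tested Cyp3a probe in 9 of 72 groups checked (the gap to the nearest array over the range of the group was above 0.71). Chance marks about 1 in 20 such groups. XX E replicate 1 did so on 4 probes: Cyp3a25 was 10.26 (others 12.09 to 12.47), and Cyp3a13 probes 1, 2 and 3 were 13.36, 10.16 and 12.60 (others up to 11.86, 8.68 and 11.90). This array had the highest macrophage marker mean of the 60 (7.67; the others of its group 7.42 to 7.61) and a hepatocyte marker mean of 12.8; the part of either was not tested. XY- E replicate 5, the array with the Hsd3b5 level of a testosterone array, had Cyp3a13 probe 1 at 11.34 (others 11.81 to 11.98). Cyp3a13 probe 2 was 9.02 in XY- E replicate 1 (others up to 8.20), Cyp3a13 probe 3 was 11.56 in XY- T replicate 4 (others up to 11.39) and 11.99 in XY-Sry T replicate 3 (others up to 11.61), and Cyp3a25 was 11.91 in XY-Sry E replicate 1 (others from 12.47).

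In adipose tissue an array did so in 17 of 44 groups, high in 16 of them. The cut is that for 5 arrays and some of these groups had 4, so the chance rate given for liver does not hold for those. XY-Sry T replicate 1 was high for Cyp3a11 (13.47), Cyp3a13 probes 1 and 3 (10.53 and 11.14) and Cyp3a25 (11.97). XX T replicate 4 was high for Cyp3a11 (11.16) and Cyp3a25 (8.34), XXSry B replicate 1 for Cyp3a13 probe 3 (8.15) and Cyp3a25 (8.10), and XXSry T replicate 5 for Cyp3a25 (6.85). XX E replicate 1 was high for Cyp3a11 (8.43) and Cyp3a25 (5.99), and XY- B replicate 1 for Cyp3a11 (7.37) and Cyp3a13 probe 1 (5.46). Cyp3a11 alone was high in XY-Sry E replicate 1 (7.87), XY- E replicate 1 (7.002) and XY- T replicate 1 (6.01), and Cyp3a25 was low in XY- E replicate 5 (4.48, not detected). The hepatocyte marker means of the 55 arrays are given with the adipose results.

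The fitted interaction of testosterone and gonad for Cyp3a41 in liver was 2.96 by limma. With 0 of 20 testosterone arrays and 0 of 10 blank arrays with Sry detected, it restates the gonad difference of the blank mice and shows no difference in response.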

How the results depend on the processing

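The Cyp3a41 calls for testosterone, gonad, and gonad in blank and in estradiol mice kept their direction and call under each of 10 other settings that kept the probe and each of 60 fits that left out 1 liver array. The strict filter, which needs detection in 50% of the arrays, leaves Cyp3a41 out because it was detected in 20 of 60, so the count fell to 0 for gonad, for gonad within a treatment, for a hormone within a gonad type and for interactions. The number of member probes called for testosterone rose from 3 to 5 with array weights. It fell to 2 with median centring, with the strict filter, and with slide as a fixed or as a random block. For testosterone minus estradiol the number fell from 4 to 2 with median centring. Within a gonad type 1 hormone difference was called, 3 with median centring, 3 with array weights, 2 without a filter and 2 without the 3 arrays that stand apart (an alternative chosen after seeing the data), and 1 to 2 when 1 array was left out. The added call was that of Cyp3a13 probe 1 for testosterone without Sry in each of these except without a filter (Cyp3a44 for estradiol), beside Cyp3a41 for estradiol without Sry with median centring and Cyp3a11 with array weights. Leaving out XX E replicate 1, XX T replicate 4 or XY- B replicate 5 gave it. Interactions rose from 1 to 2 with array weights. In adipose tissue 1 of the probes was called without a filter (Cyp3a44, never detected), and the strict filter leaves no member. Median centring moved the median of all probes to -0.18 for estradiol and to 0.11 for testosterone minus estradiol, and the share of higher calls under testosterone from 42.8% to 16.5%.

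Signs turned for values near 0: Cyp3a13 probe 2 under testosterone was 0.034 with slide as a fixed block. Cyp3a41 under estradiol was 0.17 and 0.046 with slide as a fixed and as a random block, 0.081 without both arrays against a label and 0.021 without the 3 arrays that stand apart, and -0.13 to 0.081 when 1 array was left out. Cyp3a41 under testosterone with Sry was 0.16 and 0.086 with the slide blocks, where it was not detected. Spearman's rho with the nearest gene was 0.92, 0.92, 0.77 and 0.85 for Cyp3a11, Cyp3a13, Cyp3a25 and Cyp3a41, against Pearson's r of 0.94, 0.93, 0.93 and 0.95. The causes were not tested. No paired analysis was possible because the replicate numbers only name arrays; slide was used as a block instead. Signal over background limits Cyp3a41, Cyp3a44 and Cyp3a16, whose low groups have only an upper bound.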
